A study of Mus musculus with 2 samples.

Results

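The microRNA (miRNA) genes Mir124a-1, Mir124a-2, Mir124a-3, Mir9-1, Mir9-2 and Mir9-3, which are 2 families of 3 gene copies each, were followed as 6 of the 2202 miRNA genes in the count tables. They were chosen by name in the GENCODE M21 annotation and not by a cut on their counts, though earlier results of these data were known. Small RNA libraries had been prepared from total RNA of the hippocampus of female mice of the strain B6CASTF1/J at 36 days of age. The labels name biological replicates 1 and 2, which formed 1 group, so no treatment, genotype, age or tissue could be compared. Both carry separate biosample entries and 1 shared donor entry, and the spread between them may therefore be technical in part. The labels call the tissue a layer of the hippocampus and name no layer.

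A miRNA gene is transcribed into a folded precursor, the hairpin, from which a mature RNA can be cut on either arm. The mature RNA guides repression of messenger RNAs through its seed, bases 2 to 8 from the 5′ end. Mature miR-124 is known as a highly abundant miRNA of neurons, where it represses genes of non-neuronal cells such as the splicing regulator Ptbp1. Mature miR-9 is known from neural progenitors and neurons, and both of its arms act on transcription regulators, among them Rest. Each of these mature RNAs comes from several gene copies, so that a read of the mature RNA alone does not tell which copy made it.

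The RefSeq table of miRNA sequences (build GRCm38.p6) matched 968 of the 2202 genes in the files, and 3 of the 6 genes described here, Mir9-1, Mir9-2 and Mir9-3. Mir124a-1, Mir124a-2 and Mir124a-3 were not matched. The mature sequences from both arms of Mir9 are shown first because each was the same in all 3 hairpins, with the seed in capitals.
miR-9-5p: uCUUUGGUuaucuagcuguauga
miR-9-3p: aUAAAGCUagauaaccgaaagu
Among the 1738 mature sequences of the table, 0 genes outside Mir9 carried either seed.

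The 3 Mir9 hairpins are shown because their differences lie outside the mature parts, which are in capitals.
Mir9-1: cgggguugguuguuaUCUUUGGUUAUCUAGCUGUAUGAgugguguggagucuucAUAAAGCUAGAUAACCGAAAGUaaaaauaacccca
Mir9-2: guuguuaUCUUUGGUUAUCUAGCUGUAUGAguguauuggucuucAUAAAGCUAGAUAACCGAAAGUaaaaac
Mir9-3: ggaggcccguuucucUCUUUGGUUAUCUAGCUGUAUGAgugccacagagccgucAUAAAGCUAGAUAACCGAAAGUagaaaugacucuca
The hairpin of Mir9-1 spans chr3:88215598-88215686, that of Mir9-2 chr13:83738814-83738885 and that of Mir9-3 chr7:79505264-79505353, all on the plus strand, and the files' annotation gives them the same bounds. Their lengths are 89, 72 and 90 bases. In a global alignment Mir9-1 shared 78.7% of positions with Mir9-2 and 78.9% with Mir9-3, and Mir9-2 shared 71.1% with Mir9-3.

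All 6 genes lie in or at the edge of long noncoding RNA genes of the same strand, and only Mir9-1 also has a miRNA gene opposite. Mir124a-1 (chr14:64590657-64590741) lies in an exon of Mir124a-1hg, and Mir124a-2 (chr3:17795662-17795770) lies partly in an exon of Mir124-2hg. Mir124a-3 (chr2:180894040-180894107) overlaps Gm27032 by 3 bases. Mir9-1 lies in an intron of Gm3764, Mir9-2 in an exon of C130071C03Rik and Mir9-3 in an intron of Mir9-3hg. Opposite Mir9-1, on the minus strand, the annotation places the miRNA gene Gm25641 (chr3:88215589-88215696).

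Replicate 1 held 9595913 reads, of which 2928141 (30.5%) were counted in sense on a miRNA gene, and replicate 2 held 10489588, of which 3644157 (34.7%) were. Multimapping reads, those that fit several places in the genome, were counted apart from all genes, and made up 38.9% of replicate 1 and 45.8% of replicate 2. Levels are given as CPM, reads per 1000000 sense reads on miRNA genes. Of the 18 other genes of a list of neuronal miRNAs, 17 had at least 10 reads in each library, with medians of 425 and 457 CPM, so that miRNAs known from neurons were present in both libraries. Of 9 genes known from astrocytes 9 reached that minimum, of 5 known from oligodendrocytes 5 did, and of 13 known from blood, vessels and other organs 9 did.

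The Mir124a genes had almost no reads of their own. Mir124a-1, the copy on chromosome 14, had 8 reads in replicate 1 (2.73 CPM) and 8 in replicate 2 (2.20 CPM). Mir124a-2 had 4 reads in replicate 1 (1.37 CPM) and 0 in replicate 2, where the one-sided limit for a count of 0 is 3 counts (0.823 CPM). Mir124a-3 had 4 reads in replicate 1 (1.37 CPM) and 1 in replicate 2 (0.274 CPM). No copy reached 10 reads in either library. In replicate 1 the exact two-sided Clopper-Pearson 95% interval was 1.18 to 5.38 CPM for Mir124a-1 and 0.372 to 3.50 CPM for both other copies, which overlap. In replicate 2 it was 0.948 to 4.33 CPM for Mir124a-1, 0 to 1.01 CPM for Mir124a-2 and 0.00695 to 1.53 CPM for Mir124a-3. The intervals of Mir124a-1 and Mir124a-2 overlap by little there, and would not with the one-sided limit, so the order among the copies was not settled at this depth. These intervals and the limit for a count of 0 cover counting error of reads with 1 place only, and set no bound on mature miR-124 in the tissue.

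The Mir9 genes were unequal, with Mir9-3 far above Mir9-1 and Mir9-1 above Mir9-2 in both libraries. Mir9-3 had 324 reads in replicate 1 (111 CPM, exact 95% interval 98.9 to 123) and 480 in replicate 2 (132 CPM, 120.2 to 144). Mir9-1 had 33 reads in replicate 1 (11.3 CPM, 7.76 to 15.8) and 62 in replicate 2 (17.0 CPM, 13.04 to 21.8). Mir9-2 had 4 reads in replicate 1 (1.37 CPM, 0.372 to 3.50) and 2 in replicate 2 (0.549 CPM, 0.0665 to 1.98). The intervals of the 3 copies did not overlap within either library. Per 100 hairpin bases, the reads were 360.0 and 533 for Mir9-3, 37.1 and 69.7 for Mir9-1, and 5.56 and 2.78 for Mir9-2 in replicates 1 and 2. Mir9-3 thus exceeded Mir9-1 by 9.71-fold and 7.66-fold per base. How many reads each copy lost to the group with several places was not measured, so that this order is one of reads with a single place.

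**Figure D1:**
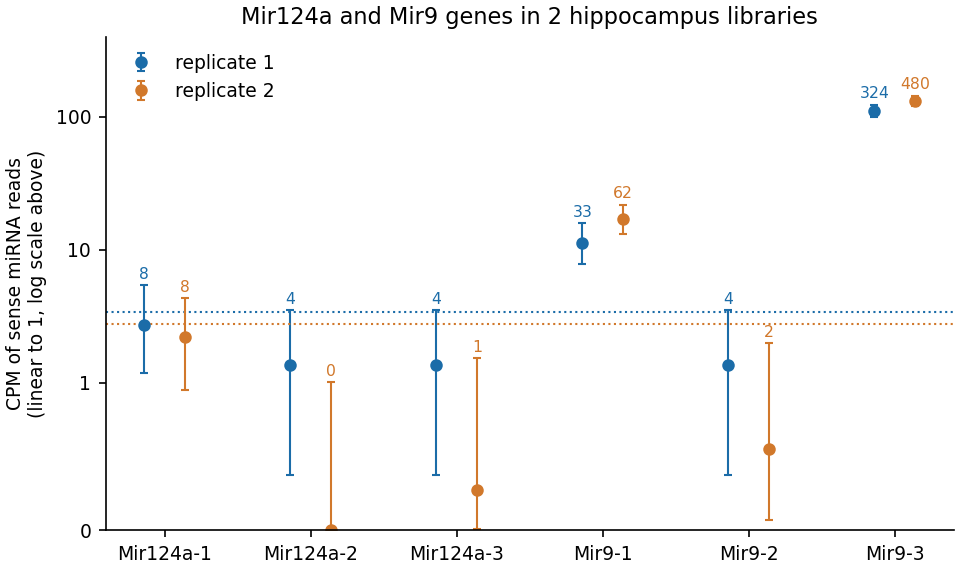
Sense reads of each gene as CPM (vertical axis, linear up to 1 and logarithmic above) in replicate 1 and replicate 2, with exact 95% intervals of the counting error; the number over each point is its read count, and the dotted lines mark 10 reads in each library. Mir9-3 (324 and 480 reads) and Mir9-1 (33 and 62) lie above both lines, and the other 4 genes lie below them.

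With at least 10 reads in each library taken as detection, 2 of the 6 genes were detected, Mir9-1 and Mir9-3, beside 17.1% of all 2202 genes. Mir9-3 was at 121 ± 14.9 CPM (SD, n = 2) and stood at rank 196 by mean CPM, and Mir9-1 was at 14.1 ± 4.06 CPM at rank 299. Mir124a-1 was at 2.46 ± 0.380 CPM (rank 420), Mir9-2 at 0.957 ± 0.578 CPM (rank 522), Mir124a-3 at 0.820 ± 0.772 CPM (rank 538) and Mir124a-2 at 0.683 ± 0.966 CPM (rank 559). No read was assigned to 1479 of the 2202 genes, so by mean CPM any gene with a read stood above those. The rank of Mir124a-2, the lowest of the 6, rests on 4 reads in replicate 1, since it had 0 in replicate 2. Over the 2 libraries, the levels nearest to Mir9-3 in log2(CPM + 1) were those of Mir539 (319 and 488 reads, distance 0.03), Mir30b (324 and 391, 0.29) and Mir496a (383 and 415, 0.32). Nearest to Mir9-1 were Mir181a-2 (32 and 62 reads, distance 0.04), Mir26a-2 (33 and 67, 0.11) and Mir200c (29 and 58, 0.19).

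Reads with several places outnumbered the reads of these genes by orders of magnitude. Mir9 as a family held 361 reads in replicate 1 and 544 in replicate 2, which is 136 ± 18.4 CPM (SD, n = 2). Reads with several places numbered 3734600 and 4807740, or 10345 and 8838 for each Mir9 read. Mir124a as a family held 16 and 9 reads, 3.97 ± 2.12 CPM, with 233412 and 534193 reads with several places for each of them. The count tables do not say which miRNAs these reads came from, so the part of miR-124 and miR-9 in them was not tested.

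The distance from the mature sequence to the first base that differs between copies was shortest for Mir9-3. Positions are counted from 1 at the base next to the mature sequence, going outwards, and each substitution gives the base of the first-named copy and then that of the other. Before miR-9-5p, Mir9-1 and Mir9-3 differ by A1C, and so do Mir9-2 and Mir9-3, so that 1 further base at the 5′ end sets Mir9-3 apart from both. After miR-9-3p both other copies differ from Mir9-3 by A2G, and before miR-9-3p both differ from it by U3G. After miR-9-5p all 3 copies differ at position 4, as G4U between Mir9-1 and Mir9-2, G4C between Mir9-1 and Mir9-3, and U4C between Mir9-2 and Mir9-3. That position is the nearest at which Mir9-1 and Mir9-2 can be told apart. Beside miR-9-3p their first differences lie at position 6 after it (U6C) and position 7 before it (A7G). The 7 bases that the shorter hairpin, Mir9-2, has before miR-9-5p are the same in both.

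Mir9-3, which needs 1 base beyond the mature sequence, had the most reads. Mir9-1 and Mir9-2 each need 4, and differed from each other by 33 against 4 reads in replicate 1 and by 62 against 2 in replicate 2. The counts are per hairpin and give neither the ends nor the arms of the reads, so whether the counted reads held these bases was not tested.

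Windows of 22 bases, about the length of a mature miRNA, were then searched in all 1005 hairpins of the table. Of the 69 windows of the Mir9-3 hairpin, 60 (87.0%) occurred in no other hairpin, against 44 of 68 (64.7%) for Mir9-1 and 27 of 51 (52.9%) for Mir9-2. A window found only in Mir9-3 could hold up to 21 bases of miR-9-5p or 20 of miR-9-3p. For Mir9-1 and Mir9-2 the most was 18 bases of miR-9-5p or 16 of miR-9-3p. Matches elsewhere in the genome were not searched, so a window held by 1 hairpin may still occur at other places.

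**Figure D2:**
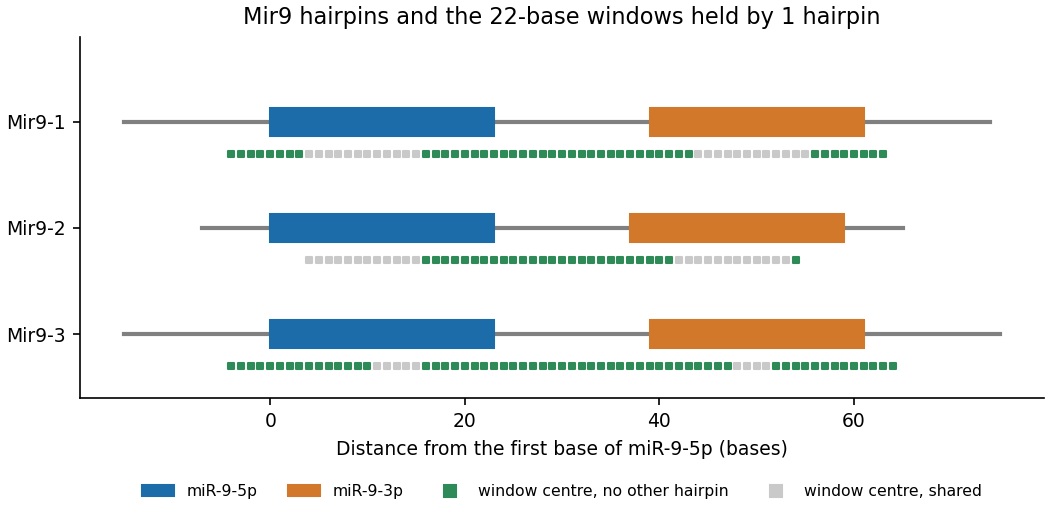
The 3 Mir9 hairpins to scale (grey lines), with miR-9-5p and miR-9-3p as boxes, by distance in bases from the first base of miR-9-5p; each square under a hairpin marks the centre of a 22-base window, green where no other hairpin of the table holds it and grey where one does. Windows shared with other hairpins centre on the mature sequences, and Mir9-3 has the fewest of them (9 of 69).

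Strand mattered for Mir9-1. Counted without strand, Mir9-1 had 0 reads in both libraries, because it lies opposite Gm25641. The antisense counts of Gm25641, 33 and 62 reads, are the sense reads of Mir9-1 seen from the other strand, and Gm25641 itself had 0 sense reads in both libraries. Antisense reads at the 6 genes were 2 for Mir124a-3 and 2 for Mir9-3 in replicate 1, and 0 for all others and for all 6 in replicate 2. Mir9-3 counted without strand had 326 and 480 reads.

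No difference between the libraries in the make-up of either family passed the test. Mir9-3 held 89.8% of the Mir9 reads in replicate 1 (exact 95% interval 86.2% to 92.7%) and 88.2% in replicate 2 (85.2% to 90.8%). Mir9-1 held 9.14% (6.38% to 12.6%) and 11.4% (8.85% to 14.4%), and Mir9-2 held 1.11% (0.303% to 2.81%) and 0.368% (0.0446% to 1.32%). A two-sided Fisher's exact test over the 3 copies gave p = 0.236 (adjusted over both families, 0.236). Mir124a-1 held 50% (24.7% to 75.3%) and 88.9% (51.8% to 99.7%) of the Mir124a reads, and the Fisher's exact test gave p = 0.139 (adjusted 0.236). With 16 and 9 reads, a difference in the make-up of Mir124a was not detected and could have been missed.

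The libraries were then compared gene by gene. Given both totals, an exact binomial test (two-sided) was run on each of the 474 genes with at least 10 reads in sum and adjusted over all of them. It compares 2 libraries and no condition, and allows for no noise beyond counting error. Of the 6 genes 3 had enough reads, and 1 was called, Mir9-3, beside 58.0% of all genes tested. Its ratio of replicate 2 to replicate 1 was 1.19 (exact 95% interval 1.03 to 1.37, adjusted p = 0.0300 by the exact test), and 31.6% of the genes tested were called in that direction. Under 4 of 7 alternatives, all of them other scalings, the adjusted p of the exact test was 0.0563 to 0.127 and the call was lost. Mir9-1, at a ratio of 1.51 (0.974 to 2.38), was not called (adjusted p = 0.0998 by the exact test), nor was Mir124a-1, at 0.804 (0.263 to 2.46, adjusted p = 0.853 by the exact test).

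The difference of Mir9-3 was small beside those of other genes. Of the 474 genes, 339 had a larger ratio in either direction, and the log2 ratio of Mir9-3 was 0.25, against an SD of 0.86 over the 295 genes whose mean count reached 50. Genes of the marker lists differed between the libraries as well. Over all 474 genes tested, 31.6% were called higher in replicate 2 and 26.4% higher in replicate 1. Of the 24 neuronal genes, with the 6 included, 21 were tested. Among these, 11 were called higher in replicate 2, Mir9-3 itself being 1 of them, and 6 higher in replicate 1. The summed levels were 39474 and 44686 CPM. Of the 9 astrocyte genes 8 were called higher in replicate 1 and 1, Mir143, in replicate 2 (23045 and 19097 CPM in sum). Mir143 alone was at 4740 and 6401 CPM. Of the 5 oligodendrocyte genes, Mir219a-2 and Mir338 were called higher in replicate 1, at ratios of 0.349 and 0.663, and Mir219a-1 was not called. Mir23a and Mir27a were called higher in replicate 2, at ratios of 1.03 and 2.06. Mir23a alone held 8014 and 8278 of the list's 13434 and 10955 CPM. Of the blood, vessel and other-organ list 10 of 13 were tested, and 5 were called higher in replicate 1 and 3 in replicate 2 (17017 and 11036 CPM), with 0 reads for Mir1a-1 and Mir133a-1. The part of these shifts in the ratio of Mir9-3 was not tested.

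**Figure D3:**
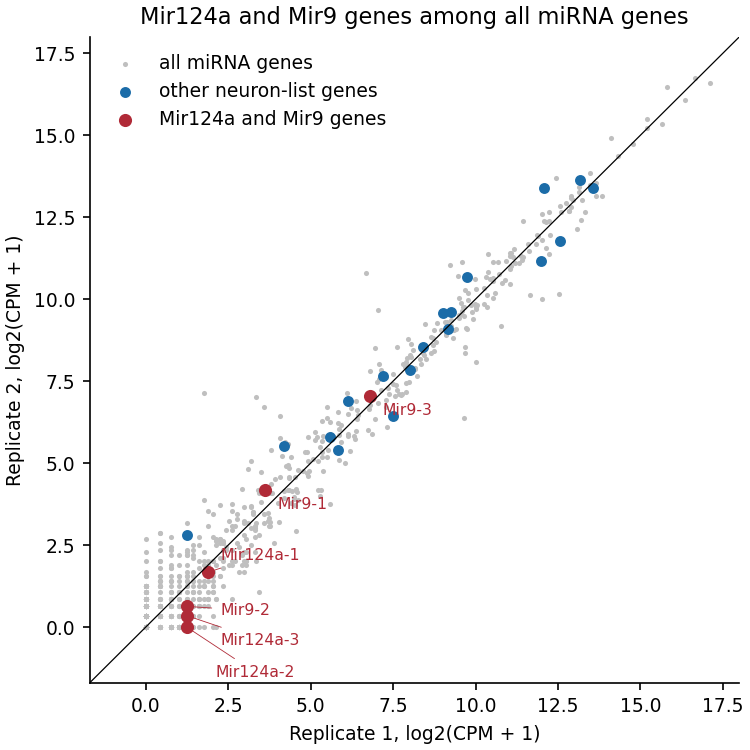
Each of the 2202 miRNA genes by log2(CPM + 1) in replicate 1 (horizontal) and replicate 2 (vertical), with the Mir124a and Mir9 genes in red, the other genes of the neuron list in blue and the line of equal levels. Mir9-3 lies close to the line and Mir9-1 farther above it (ratios of replicate 2 to replicate 1 of 1.19 and 1.51). The 3 Mir124a genes and Mir9-2 lie among the genes with few reads.

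Other neuronal miRNAs with gene copies ranged from levels far above those of the Mir9 genes to levels below that of Mir9-3. In replicates 1 and 2, Mir128-1 had 12668 and 38709 reads and Mir128-2 had 2490 and 5925. Mir138-1 had 17741 and 12762 reads, and Mir138-2 had 11799 and 8348. For both pairs 1 of the 2 mature sequences annotated for a gene occurs in the other copy's hairpin, and the other mature sequence occurs in no further hairpin of the table. The same holds for Mir218-1 (51 and 163 reads), Mir218-2 (429 and 724), Mir7-1 (525 and 312), Mir7-2 (759 and 822), Mir129-2 (1789 and 2828), Mir135a-1 (4 and 22) and Mir135a-2 (162 and 150). The Mir135a pair is named here after its values were seen. Mir129-1 (202 and 434 reads) has 1 mature sequence in the table, which is shared. In both libraries Mir218-1, Mir129-1, Mir135a-1 and Mir135a-2 thus lay below Mir9-3, which had 324 and 480 reads. In the Mir9 hairpins both annotated mature sequences are shared.

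The neuronal genes Mir137, Mir132, Mir153 and Mir212, whose mature sequences occur in 1 hairpin of the table, had more reads than Mir9-3. Mir551b had fewer in both libraries. Mir137, which acts in neuronal maturation, had 26682 and 46028 reads (10871 ± 2488 CPM, SD, n = 2), and the activity-regulated Mir132 had 35587 and 38758. Mir153 had 1501 and 2772 reads and Mir212 had 988 and 1358. Mir551b, not matched in the table, had 139 and 199 reads. Among the 18 other genes of the neuron list, the lowest by mean CPM was Mir135a-1, with 4 and 22 reads. Mir9-2 and the 3 Mir124a genes were lower still by mean CPM. In replicate 1 alone none of them lay below Mir135a-1, with 8 reads for Mir124a-1 and 4 for each of the others.

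Across the table, genes were grouped by whether their annotated mature sequences occur in another gene's hairpin, among those with 2 annotated mature sequences. Where both were shared, 4 of 23 genes (17.4%) were detected, with a median of 0 CPM, and 17 had no read. Mir9-1 and Mir9-3 were 2 of these 4, and Mirlet7a-1 and Mirlet7c-2 were the others. Where 1 was shared, 35 of 54 genes (64.8%) were detected (median 17.8 CPM), and where none was, 231 of 549 (42.1%) were (median 2.06 CPM). These counts describe the grouping and were not tested, since the genes of a family are not independent and the groups differ in kind; the group with both shared also holds families that are not known from brain. The table is not complete, so a mature sequence seen in 1 hairpin of it may be shared with a gene it lacks.

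**Figure D4:**
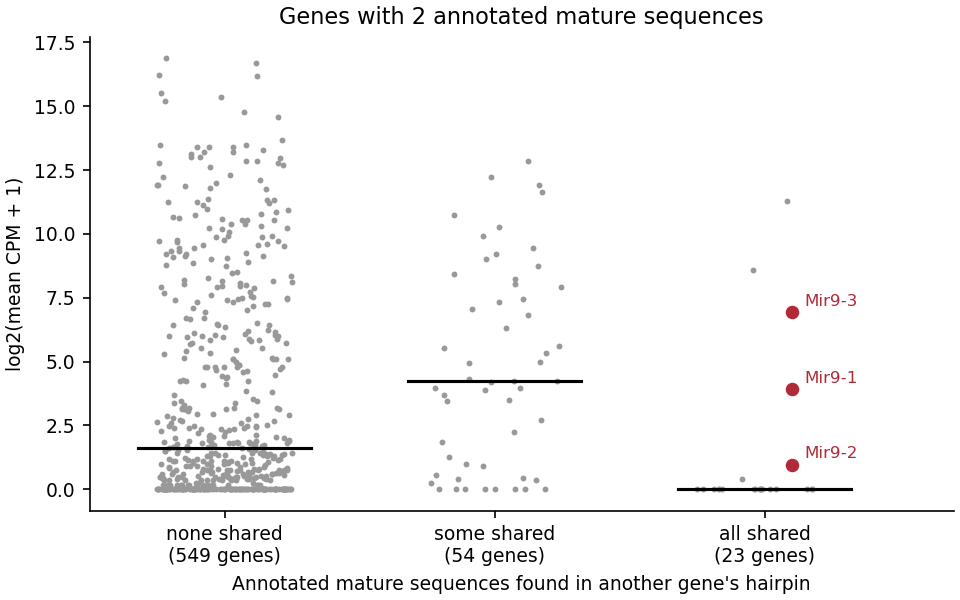
Mean level of each gene with 2 annotated mature sequences, as log2(mean CPM + 1), grouped by how many of them occur in another gene's hairpin (none, 549 genes; 1, 54 genes; both, 23 genes); black lines mark the medians and red points the Mir9 genes. The median of the group with both shared is 0 CPM, since 17 of its 23 genes had no read. Any gene with a read, the Mir9 genes included, therefore lies above it.

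The table held 6 families in which at least 3 hairpins hold the same mature sequence, and Mir9 held the most reads of them. It matched 968 of the 2202 genes, and none of the Mir124a genes, so families outside it were not ranked. The 361 and 544 reads of Mir9 in replicates 1 and 2 came with 2 of 3 genes detected. Mir199a-1, Mir199a-2 and Mir199b, known from mesenchymal and vascular cells, held 11 and 1 reads, and Mir344d-1, Mir344d-2 and Mir344d-3 held 1 and 1, with 0 genes of either family detected. The other 3 families held at most 1 read in a library.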

How the data were processed

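Per the labels, both small RNA libraries were prepared from total RNA, with inserts under 30 bases. The deposited files hold whole-number counts per miRNA gene, not normalized, for the assembly mm10 and annotation M21, per the notes deposited with them. Which aligner was used is not given in the sources used here. No column is named. The first was taken as unstranded, the middle one, with the larger stranded total, as sense, and the last as antisense. Rows that name no gene held 69.5% and 65.3% of the reads and were left out of totals. All 2202 identifiers matched GENCODE M21. RefSeq hairpins were matched by symbol, strand and overlapping position.

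CPM used the sense total of each library, and 10 reads are 3.42 and 2.74 CPM in replicates 1 and 2. The exact binomial read test was tested on simulated counts with sampling noise alone. That does not show how it behaves where libraries differ by more. A chi-square over genes between the libraries was 390 times its degrees of freedom, so they differ by more than the sampling noise of 1 library. The 6 genes and all lists were chosen with earlier results of these data known. Named were the 6 genes, the copies of 5 neuronal families, 5 neuronal genes without listed copies, the 3 families of at least 3 copies with most reads, and the 3 nearest genes in level to each detected one. Alternatives were counts without strand, other totals, TMM (edgeR 4.0.16) and DESeq2 (1.42.0) scaling, other filters and detection limits, other window lengths, and leaving out either replicate. Python 3.11.15, scipy 1.17.1 and R 4.3.3 were used.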

Additional observations from a re-analysis of the deposited data

How the results depend on the processing

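The order Mir9-1 over Mir9-2 rests on counts with strand, since without it Mir9-1 had 0 CPM and Mir9-2 had 1.04 CPM. Mir9-3 stayed the highest of the family at 131 CPM, and its share then rose from 89.0% to 99.2%. Per all reads with a place, those with several places included, the family levels were 1.64 CPM for Mir124a and 56.1 CPM for Mir9, as the larger total implies. Between the libraries 0 of the 3 tested genes were called under TMM scaling, under DESeq2 size factors, with totals of all reads with a place and with totals without the gene with most reads. There the ratio of Mir9-3 was 1.16, 1.17, 1.16 and 1.13 (exact binomial test, adjusted p 0.0616, 0.0563, 0.0613 and 0.127). Its ratio was 1.13 to 1.19 and that of Mir9-1 1.44 to 1.51 over all settings run. With at least 1 read in each library 5 of the 6 genes and 577 of all genes were detected, and with at least 20 reads Mir9-1 and Mir9-3 were, as at 10. Windows of 18, 20 or 24 bases moved no window count by more than 1.5 times. With 2 replicates, leaving out 1 cannot move a mean by more than 1 SD, so that measure does not show stability. Without replicate 1, the Mir124a family fell from 3.97 to 2.47 CPM, Mir124a-3 from 0.820 to 0.274, Mir9-2 from 0.957 to 0.549 and Mir124a-2 from 0.683 to 0. Without replicate 2, Mir124a-2 and Mir124a-3 were at 1.37 CPM each. The search of windows in the whole genome was not run. No paired analysis was possible because there was 1 group. With under 10 reads, the levels of the Mir124a genes and Mir9-2 carry a wide counting error, and reads with several places are not in them.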
